A study of Homo sapiens with 22 samples.

Results

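The epidermal differentiation complex and the S100A genes form a gene cluster on human chromosome 1q21. The members described here were chosen by symbol alone: S100A genes, small proline-rich genes (SPRR), late cornified envelope genes (LCE), involucrin (IVL), loricrin (LOR), and the fused-type genes FLG, FLG2, HRNR, RPTN, CRNN, TCHH and TCHHL1. The rule found 54 genes among the 48648 genes with a symbol of their own in the table. They comprised 16 S100A, 11 SPRR, 18 LCE and 7 fused-type genes, with IVL and LOR as the other two.

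RNA was measured by poly-A RNA-seq in 22 libraries labelled RWPE1, an immortalised line of human prostate epithelial cells that normally shows basal features. Per the labels, the cells carried wild-type NKX3.1 (NKX3.1, 6 libraries), the R52C form of NKX3.1 (R52C, 6 libraries), the T164A form (T164A, 4 libraries) or an empty, altered pTRIPZ vector (Vector, 6 libraries). NKX3.1 itself is a homeobox protein found in the luminal cells of the prostate. Every library, Vector included, was titled as treated with paraquat, a redox-cycling compound that produces superoxide. Of the T164A libraries 3 lacked a treatment tag, and no untreated library was analysed here, so nothing below bears on paraquat itself. Separate cultures or separate engineered clones are not named for the libraries of a group, and each p-value therefore rests on library-to-library spread alone, which could be technical. The promoter that drives each transgene is not given in the sources used here.

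Levels are on the deposited log2 scale, where a difference of 1 is a doubling, and values under 3 were treated as not detected. KRT5, the keratin of basal cells, averaged 16.53 in NKX3.1, 4.09 in R52C, 15.49 in T164A and 16.90 in Vector. TP63, the basal transcription factor, averaged 11.99 in NKX3.1, 1.26 in R52C, 11.12 in T164A and 12.36 in Vector, so in the libraries labelled R52C TP63 was under the floor and KRT5 far below the other groups. KLK3, which encodes prostate-specific antigen, averaged 14.84 in NKX3.1, 16.58 in R52C, 0.26 in T164A and 12.79 in Vector. IRS4, chosen after its values were seen, ran from 13.63 to 13.65 in T164A and was at most 3.07 in any other library. Each direction given below for R52C or T164A is one between libraries so labelled. In these bulk samples, fewer cells of a type and less RNA per cell cannot be told apart.

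In stratified epithelium, keratinocytes that leave the basal layer build a cornified envelope beneath the plasma membrane. Involucrin, loricrin, small proline-rich and late cornified envelope proteins are cross-linked into it by transglutaminases, while filaggrin, a fused-type protein, bundles keratin filaments. S100A proteins are small calcium-binding proteins with many partners: S100A8 and S100A9 form calprotectin, S100A10 pairs with annexin A2, and several others mark basal or activated epithelium. Activator protein 1 (AP-1) is known to drive many of these genes in keratinocytes.

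Promoter sequence is shown for genes that behaved differently in the comparisons below: SPRR1B, SPRR3, IVL and S100A9, which were low in both R52C and T164A, and S100A2 and S100A10, which were near the floor in R52C and above 11 in T164A. The 250 bases before each gene's start are printed 5′ to 3′ on the gene's strand from RefSeq (GRCh38.p14), with matches to the AP-1 motif TGANTCA and to the TATA box TATAAA in capitals. They lie at chr1:153030953-153031202, chr1:153001499-153001748, chr1:152908296-152908545 and chr1:153357604-153357853 on the plus strand, and at chr1:153565845-153566094 and chr1:151993860-151994109 on the minus strand.

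SPRR1B: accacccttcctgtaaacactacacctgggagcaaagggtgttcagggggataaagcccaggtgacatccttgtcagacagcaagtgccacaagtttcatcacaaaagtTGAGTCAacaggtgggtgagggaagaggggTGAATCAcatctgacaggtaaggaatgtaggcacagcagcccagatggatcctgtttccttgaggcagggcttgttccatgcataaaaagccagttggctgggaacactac
SPRR3: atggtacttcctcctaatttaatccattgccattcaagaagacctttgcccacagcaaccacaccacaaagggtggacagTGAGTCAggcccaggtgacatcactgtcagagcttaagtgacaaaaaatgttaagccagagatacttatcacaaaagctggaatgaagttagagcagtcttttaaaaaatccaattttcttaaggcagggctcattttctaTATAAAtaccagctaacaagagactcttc
IVL: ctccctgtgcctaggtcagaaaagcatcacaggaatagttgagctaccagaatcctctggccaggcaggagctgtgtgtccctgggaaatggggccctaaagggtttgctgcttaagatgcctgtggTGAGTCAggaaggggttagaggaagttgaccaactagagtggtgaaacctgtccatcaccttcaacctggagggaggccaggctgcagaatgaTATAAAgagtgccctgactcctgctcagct
S100A9: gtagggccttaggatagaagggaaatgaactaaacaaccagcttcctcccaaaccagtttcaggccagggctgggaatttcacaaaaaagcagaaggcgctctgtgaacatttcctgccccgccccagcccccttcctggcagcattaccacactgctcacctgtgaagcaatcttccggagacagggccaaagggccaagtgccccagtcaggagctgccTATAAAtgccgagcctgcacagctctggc
S100A2: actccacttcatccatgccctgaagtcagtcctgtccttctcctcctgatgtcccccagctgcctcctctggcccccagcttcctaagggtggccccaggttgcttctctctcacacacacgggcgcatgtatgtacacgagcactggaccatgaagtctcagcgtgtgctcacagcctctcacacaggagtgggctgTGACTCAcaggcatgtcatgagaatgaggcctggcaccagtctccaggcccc
S100A10: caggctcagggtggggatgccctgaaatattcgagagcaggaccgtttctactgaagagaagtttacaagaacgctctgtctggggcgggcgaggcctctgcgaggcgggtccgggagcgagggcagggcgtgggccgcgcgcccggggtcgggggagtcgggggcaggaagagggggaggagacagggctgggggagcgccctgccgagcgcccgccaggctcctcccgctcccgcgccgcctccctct

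SPRR1B held 2 AP-1 matches in this stretch, SPRR3, IVL and S100A2 held 1 each, and S100A9 and S100A10 held 0. A RefSeq promoter, reaching from 250 bases before the start to 50 after it, was matched for 50 of the 54 members, the others being LCE1B, SPRR2C, SPRR2D and SPRR2E. Searched on both strands, TGANTCA stood in 6 of 8 SPRR promoters, 6 of 7 fused-type promoters, 3 of 16 S100A promoters and 0 of 17 LCE promoters, against 7.71% of 35116 promoters. TATAAA stood in 26 of the 50, against 11.5% of all promoters. The C/EBP motif TTGCNNAA stood in 18.0% of the 50 against 10.5%, the GRHL motif AACCNGTT in 8.0% against 1.73%, the NKX3.1 motif TAAGTA in 6.0% against 5.84%, and the androgen response half-site AGAACA in 8.0% against 14.8%. No motif holds another within its letters on either strand. A match is a description of the sequence and no measurement of binding.

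Of the 54 members, 36 were above 3 in at least 4 libraries and were tested: 15 S100A, 9 SPRR, 3 LCE and 7 fused-type genes, with IVL and LOR. The other 18 were S100A5, SPRR2C, SPRR2F and 15 LCE genes, namely LCE1A, LCE1C, LCE1D, LCE1E, LCE1F, LCE2A, LCE2B, LCE2C, LCE2D, LCE3A, LCE3B, LCE3C, LCE4A, LCE5A and LCE6A. In NKX3.1 33 members were above 3 in every library, in R52C 7, in T164A 18 and in Vector 32. The 7 in R52C were FLG, HRNR, TCHH, S100A1, S100A11, S100A13 and S100A14. SPRR2 genes, LCE genes, and S100A7 with S100A7A are close copies of one another, and how the authors' counting split their shared reads is not given in the sources used here, so their single values are uncertain.

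**Figure D1:**
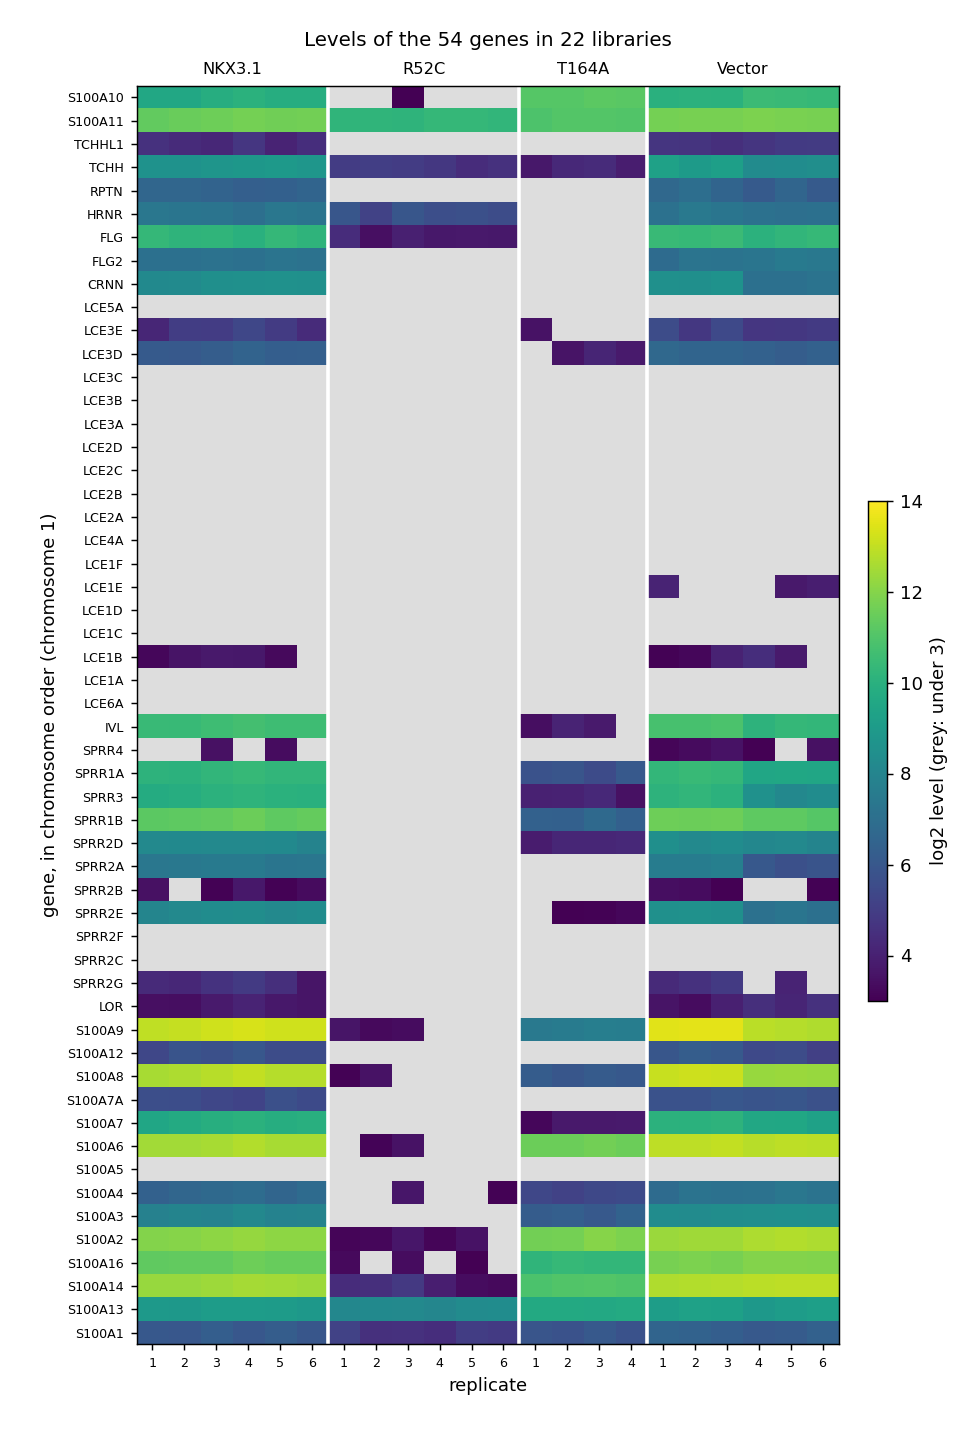
Log2 level of each of the 54 genes (rows, in chromosome order) in each of the 22 libraries (columns, by group and replicate), with values under 3 in grey. NKX3.1 and Vector share 1 pattern, T164A keeps the S100A genes at both ends of the cluster and little of the middle, and R52C is grey for most genes.

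Per kilobase of exon, the only scale on which genes are compared here, S100A9 led in NKX3.1 at 13.95 and in Vector at 13.94. This scale takes the deposited values as not yet divided by gene length, which the sources used here do not state. S100A8 stood at 12.74 in NKX3.1 and 12.71 in Vector, and S100A6 at 12.60 and 12.93. SPRR1B, below several other members in both groups, was at 12.04 and 12.08. In T164A the members with the highest level per kilobase were S100A6 at 11.61, S100A11 at 11.57 and S100A2 at 11.15, with S100A9 at 8.39. In R52C they were S100A11 at 10.80 and S100A13 at 7.05, and every SPRR gene averaged under the floor.

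The first comparison sets cells labelled as carrying wild-type NKX3.1 against cells with the empty vector. In the fit of all 4 groups together, the envelope genes did not pass the test in either direction, while several S100A genes were slightly lower in NKX3.1. Of the 36 members 0 were called higher and 5 lower in limma, where 41.0% of all 21325 genes tested were called, 21.6% higher and 19.4% lower. At an unadjusted p under 0.05 there were 0 higher and 7 lower. The median change was -0.14 over the members and -0.34 over the 15 S100A genes, against -0.01 over all genes tested.

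The lower genes were S100A4, S100A16, S100A2, S100A10 and S100A11, with changes between -0.46 and -0.20. S100A2, a nuclear S100 protein of basal epithelium, ran from 11.96 to 12.28 in NKX3.1 with a median of 12.13, and from 12.37 to 12.74 in Vector with a median of 12.54. The groups did not overlap, and the change was -0.43 (SE 0.13, adjusted p = 0.0109 in limma). Its call, like those of S100A4, S100A10 and S100A16, was lost against Vector replicates 1 to 3 alone. S100A16, a widely expressed member, ran from 11.33 to 11.56 in NKX3.1 with a median of 11.38, and from 11.73 to 11.96 in Vector with a median of 11.88. Its groups lay apart too, and the change was -0.45 (SE 0.13, adjusted p = 0.00501 in limma). S100A10, the annexin A2 partner, fell by 0.43 (adjusted p = 0.0153 in limma) and S100A11, which binds annexin A1, by 0.20 (adjusted p = 0.000862 in limma), both with overlapping groups. S100A4, which binds non-muscle myosin, fell by 0.46 (adjusted p = 0.0347 in limma), and this call was lost on leaving out any of 7 of the 12 libraries, with adjusted p up to 0.0819.

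S100A3, S100A6, S100A7A and S100A14 had groups that did not overlap, NKX3.1 being the lower one, but did not pass. S100A6, the partner of calcyclin-binding protein, was at 12.46 to 12.72 in NKX3.1 and 12.80 to 12.99 in Vector, and the SE of its change was 0.40 in the joint fit, in which the R52C libraries had an SD of 1.54. S100A14, a membrane-associated S100 protein of epithelia, was at 12.40 ± 0.09 in NKX3.1 and 12.81 ± 0.09 in Vector (SD, n = 6 each), a change of -0.41 with an adjusted p of 0.0519 in limma. With only these groups in the fit, 2 members were called higher and 9 lower, where 4170 of all 21325 genes tested were called higher and 4454 lower. Groups lay apart in the lower direction for 6 members, 4 of these and S100A2 and S100A16, where 11.6% of all genes did so.

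Genes of a basal epithelium marker list were also lower in NKX3.1. Of its 17 genes 16 had a negative change, and the median change was -0.37. In limma 7 were called lower and 1 higher, where 19.4% and 21.6% of all genes tested were. Groups lay apart in the lower direction for 15 of the 17, where 11.6% of all genes did so. The list's summed level was 1.11% to 1.19% of a library's signal in NKX3.1 and 1.35% to 1.57% in Vector. All 14 genes of the luminal and androgen-regulated list were higher in NKX3.1, with a median change of 1.98 and a summed level of 0.336% to 0.420% of the signal, against 0.0573% to 0.126% in Vector. Their part in the changes of the members was not tested. A shift of every library outside R52C to the same mean of the basal list moved all genes up. The median over all genes was then 0.35, with 99.5% of calls higher. Under this shift the members' median was 0.22, and 6 members were called higher and 0 lower. S100A11 was at 0.17, below the median of all genes. With a common median for all libraries instead, 35.6% of called genes were higher in place of 52.7%, and 0 members were called higher and 8 lower.

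The Vector libraries themselves differed in the envelope genes and, in the other direction, in the summed level of the basal list. Replicates are numbered in accession order, and replicates 4 to 6 of Vector were lower than 1 to 3, with no overlap, in 7 of 9 SPRR genes and in 18 of 36 members, where 14.3% of all genes tested did so. SPRR3, an envelope precursor of oral and oesophageal epithelium chosen here after its values were seen, stood at 9.79 to 10.15 in NKX3.1. In Vector it was at 10.12, 10.22 and 10.07 in replicates 1 to 3 and at 8.55, 8.15 and 8.35 in replicates 4 to 6. The NKX3.1 libraries therefore sat near Vector replicates 1 to 3 and above replicates 4 to 6, and the fitted change of 0.73 (SE 0.44, adjusted p = 0.195 in limma) averaged over both.

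SPRR2A, another such precursor, was at 7.28 to 7.55 in NKX3.1, and in Vector at 7.63 to 7.74 in replicates 1 to 3 and 5.68 to 6.04 in replicates 4 to 6. CRNN, or cornulin, a fused-type protein of squamous epithelium, was at 8.22 to 8.58 in NKX3.1, and in Vector at 8.49 to 8.59 in replicates 1 to 3 and 7.07 to 7.21 in replicates 4 to 6. Both were chosen after their values were seen. S100A8 and S100A9 followed the same order, at 12.56 to 12.97 and 12.96 to 13.33 in NKX3.1, between the Vector sets. Their changes were 0.03 (SE 0.48) and 0.01 (SE 0.25), with adjusted p of 0.967 and 0.988 in limma.

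Some members ran the other way: S100A2, S100A3, S100A10, S100A14, S100A16, FLG2 and LOR were higher in Vector replicates 4 to 6, without overlap. These were 7 of 36 members, or 19.4%, and over all genes tested 19.7% did so. The summed level of the basal list was also higher in replicates 4 to 6. It was 1.53% to 1.57% of the signal there and 1.35% to 1.38% in replicates 1 to 3. The 15 S100A genes were split, with 5 higher and 5 lower in replicates 4 to 6 without overlap. Against Vector replicates 4 to 6 alone, 5 members were called higher in NKX3.1 and 5 lower. Against replicates 1 to 3 alone, 0 were called higher and 3 lower. The shares over all genes in these smaller fits are not given here, and with all libraries they were 21.6% higher and 19.4% lower. These counts are therefore not read as a result about the members. Of the 5 genes called lower against all Vector libraries, S100A11 was called against replicates 1 to 3 as well (-0.17, adjusted p = 0.0144 in limma). S100A2 (-0.30), S100A4 (-0.36), S100A10 (-0.22) and S100A16 (-0.36) were not, with adjusted p between 0.0762 and 0.31 in limma, while all 5 were called against replicates 4 to 6, where S100A10 stood at -0.64. The labels name no batch that separates these Vector libraries, and the cause was not tested.

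**Figure D2:**
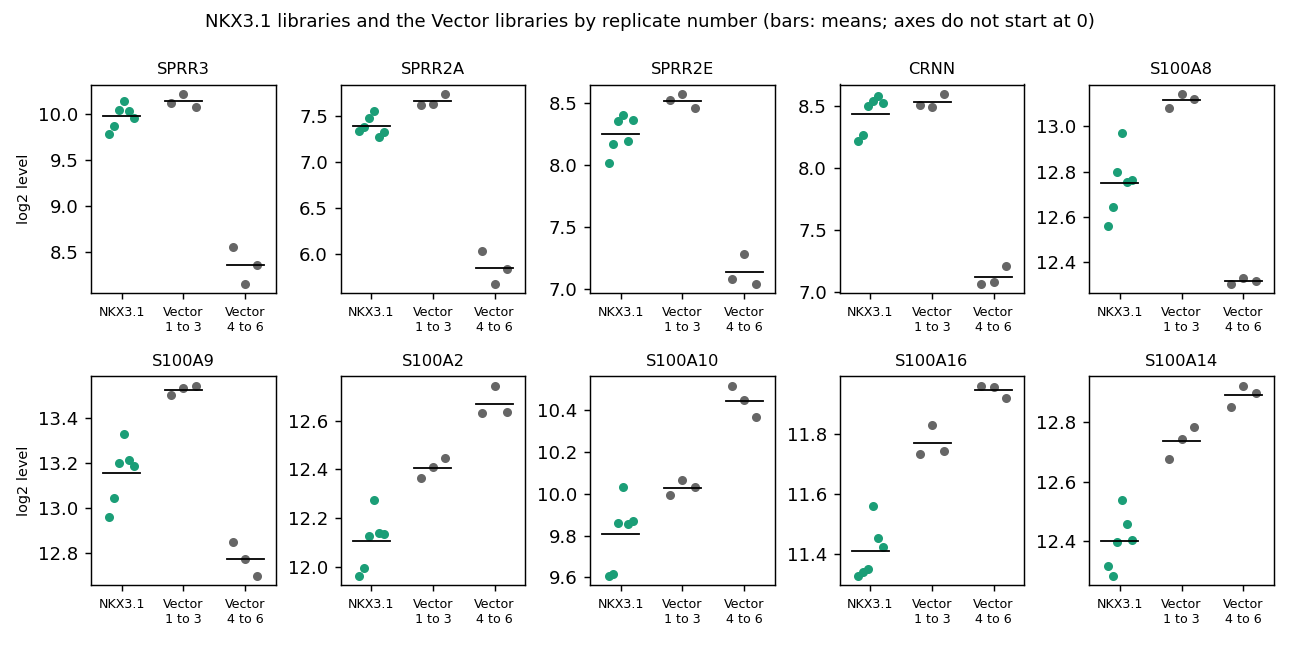
Log2 level in the 6 NKX3.1 libraries, Vector replicates 1 to 3 and Vector replicates 4 to 6 for 10 genes (points are libraries, bars are means, axes do not start at 0). For SPRR3, SPRR2A, SPRR2E and CRNN, the NKX3.1 libraries lie near Vector replicates 1 to 3 and above replicates 4 to 6; for S100A2, S100A10, S100A16 and S100A14 the Vector replicates 4 to 6 are highest.

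In R52C against Vector, the cluster was lower across all families, with most genes no longer detected. All 36 members were called lower and 0 higher, also at an unadjusted p under 0.05, where 83.8% of all genes tested were called, 42.2% higher and 41.6% lower. The median change was -7.06 over the members and 0.01 over all genes tested, or -4.14 and 0 with values under 3 raised to 3. Against NKX3.1 the 36 were again lower, where 80.1% were called, 40.9% higher and 39.2% lower. Both comparisons share the R52C libraries. Only 8 of the 54 members averaged above 3 in R52C. Tested members under 3 there entered the test through the other groups, so a higher call was hardly open to them. The shared direction of the 36 therefore follows in part from the filter.

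Among the S100A genes, S100A9 ran from 1.79 to 3.63 in R52C with a median of 2.55, and from 12.70 to 13.54 in Vector with a median of 13.17. It was at least 983-fold lower, as was S100A6 by at least 884-fold and S100A8 by at least 783-fold. S100A2 was at 3.17 ± 0.47 in R52C and 12.54 ± 0.15 in Vector (SD, n = 6 each), at least 612-fold lower. S100A10 was at least 151-fold lower, and S100A16 at least 430-fold. S100A14 remained above 3 in every R52C library, at 3.29 to 4.83, and was 437-fold lower (log2 change -8.77, SE 0.17, adjusted p = 1.29e-25 in limma).

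A few members kept a level well above the floor. S100A11 was at 10.17 to 10.33 in R52C and 11.70 to 11.82 in Vector, a change of -1.51 (SE 0.04, adjusted p = 1.74e-21 in limma). S100A13, a partner in the release of fibroblast growth factor 1, was at 8.05 to 8.37 in R52C and 8.88 to 9.31 in Vector, the smallest change of all at -0.94. S100A1, best known from heart muscle, and HRNR, or hornerin, fell by 1.56 and 1.52. S100A1 ran from 4.46 to 5.18 in R52C and from 6.08 to 6.53 in Vector, and HRNR from 5.15 to 5.93 in R52C and 7.03 to 7.45 in Vector, with no overlap in either gene.

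Of the envelope genes, IVL, an early scaffold of the envelope, was under 3 in all 6 R52C libraries and ran from 10.11 to 10.87 in Vector, at least 186-fold lower. SPRR1B and SPRR1A were at least 336-fold and 122-fold lower. FLG, which encodes filaggrin, was at 3.82 ± 0.32 in R52C and 10.34 ± 0.15 in Vector (SD, n = 6 each), 91.4-fold lower. TCHH, or trichohyalin, was at 4.79 in R52C and 8.76 in Vector, and no SPRR or LCE gene exceeded 3 in any R52C library.

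Most LCE genes, which encode late envelope proteins, averaged under 3 in every group. LCE3D averaged 6.26 in NKX3.1, 3.48 in T164A and 6.47 in Vector, and its highest R52C library stood at 1.60. LCE3E averaged 4.79 in NKX3.1 and 5.03 in Vector, and under 3 in both R52C and T164A. LOR, a late and abundant envelope protein of skin, averaged 3.68 in NKX3.1, 1.57 in T164A and 4.02 in Vector.

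R52C replicates 1 to 3 and 4 to 6 differed near the floor. S100A6 was at 2.76 to 3.52 in the first set and at 0.04 to 1.07 in the second, and KRT5 averaged 6.90 and 1.29. With either set alone, 36 members were called lower than in Vector. The basal list was also lower, with 16 of 17 genes called lower and 1 higher, where 41.6% and 42.2% of all genes tested were. Its summed level was 0.0416% to 0.0472% of the signal in R52C, against 1.35% to 1.57% in Vector. The luminal list was higher in 14 of 14 genes, at 1.42% to 1.46% of the signal. Their part in the members' change was not tested.

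In T164A against Vector, the envelope genes were low, and the S100A genes ranged widely: S100A10 and S100A13 were higher, 8 others had changes between -2.14 and -0.44, and S100A7, S100A8 and S100A9 between -6.64 and -5.55. S100A12 and S100A7A, under 3 in all 4 T164A libraries, were at least 6.60-fold and 7.18-fold lower. Of the 36 members 2 were called higher and 34 lower, where 82.2% of all genes tested were called, 40.6% higher and 41.6% lower. In T164A 20 of the 54 members averaged above 3. Tested members under 3 there entered the test through the other groups, so a higher call was hardly open to them. The median change was -1.81 over the 15 S100A genes, -4.11 over the 9 SPRR genes and -5.90 over the 7 fused-type genes, against -0.04 over all genes tested. With values under 3 raised to 3 these medians were -1.81, -4.09 and -4.25. Against NKX3.1, 2 were higher and 32 lower, where 81.9% were called, 39.6% higher and 42.3% lower. S100A1 (-0.19) and S100A2 (-0.31) did not pass there, with adjusted p of 0.21 and 0.0611 in limma, and S100A6 (-0.99) lost its call on leaving out any of the 10 libraries.

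The 2 higher genes were S100A10 and S100A13. S100A10 was at 11.11, 11.11, 11.21 and 11.17 in T164A, and ran from 9.99 to 10.51 in Vector with a median of 10.22. It rose by 0.91 (SE 0.16, adjusted p = 7.73e-06 in limma), with no overlap. S100A13 was at 9.69, 9.66, 9.64 and 9.74 in T164A and 8.88 to 9.31 in Vector, higher by 0.54 (SE 0.07, adjusted p = 9.37e-08 in limma). ANXA2, the annexin partner of S100A10, averaged 12.47 in T164A and 12.18 in Vector. In R52C ANXA2 averaged no more than 3, and S100A10 averaged 2.54.

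S100A2 was at 11.66, 11.71, 11.98 and 11.85 in T164A and had a median of 12.54 in Vector, a change of -0.74 (SE 0.15, adjusted p = 6.97e-05 in limma). S100A11 fell by 0.74, S100A6 by 1.33, S100A16 by 1.58 and S100A14 by 1.84, each with no overlap between the groups and each still above 10 in every T164A library. S100A1, S100A2 and S100A11 were at 0.54, 0.24 and 0.25 with the basal list at the same mean in every library outside R52C. Under this scaling 4 members were called higher. That scaling moves the median over all genes to 0.94 and the share of higher calls to 81.9%, in place of 49.4%.

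Of the 17 basal markers 3 were higher and 11 lower in T164A, with a summed level of 0.868% to 0.914% of the signal, against 1.35% to 1.57% in Vector. Of the 14 luminal markers 0 were higher and 13 lower, with a summed level of 0.0083% to 0.0087% in T164A and 0.0573% to 0.126% in Vector. Over all genes tested 40.6% were higher and 41.6% lower. Of 7 fibroblast markers 5 averaged above 3 in T164A and 1 in Vector, and their summed level was 0.0041% to 0.0042% in T164A and 0.0062% to 0.0098% in Vector. The part of these lists in the members' changes was not tested.

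S100A8 and S100A9 fell far. S100A8 was at 6.20, 5.94, 6.15 and 6.02 in T164A and ran from 12.30 to 13.14 in Vector, a change of -6.64 (SE 0.54, adjusted p = 1.21e-11 in limma), 99.4-fold. S100A9 was at 7.45, 7.57, 7.70 and 7.67 in T164A and had a median of 13.17 in Vector, a change of -5.55 (SE 0.28, adjusted p = 6.57e-16 in limma). S100A7, or psoriasin, was at 3.19, 3.77, 3.74 and 3.79 in T164A and averaged 9.78 in Vector, 71.1-fold lower. Myeloid cells also make S100A8, S100A9 and S100A12, and of the 10 markers listed for them PTPRC, LYZ, CSF3R, MPO, TYROBP, FCER1G and FCGR3B averaged under 3 in all 4 groups. The other markers, CD14, CSF1R and ITGAM, were detected in NKX3.1 and Vector and were called lower in both T164A and R52C, with median changes of -2.51 and -4.63, and not called in NKX3.1. CD14 averaged 3.67 in T164A and 6.14 in Vector, CSF1R 5.10 in T164A and 7.61 in Vector, and ITGAM 0.99 in T164A and 3.64 in Vector. The list's summed level was at most 0.0016% of the signal in any library, and its part in the members' changes was not tested.

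The envelope genes were lower together. SPRR1B was at 6.40, 6.39, 6.76 and 6.37 in T164A and ran from 11.12 to 11.59 in Vector, a change of -4.91 (SE 0.40, adjusted p = 1.61e-11 in limma). SPRR1A fell by 4.11 and SPRR3 by 5.29. IVL was at 3.39, 4.12, 3.80 and 2.81 in T164A, at least 124-fold lower than in Vector. FLG was under 3 in all 4 T164A libraries, at least 161-fold lower, and HRNR at least 18.0-fold lower.

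**Figure D3:**
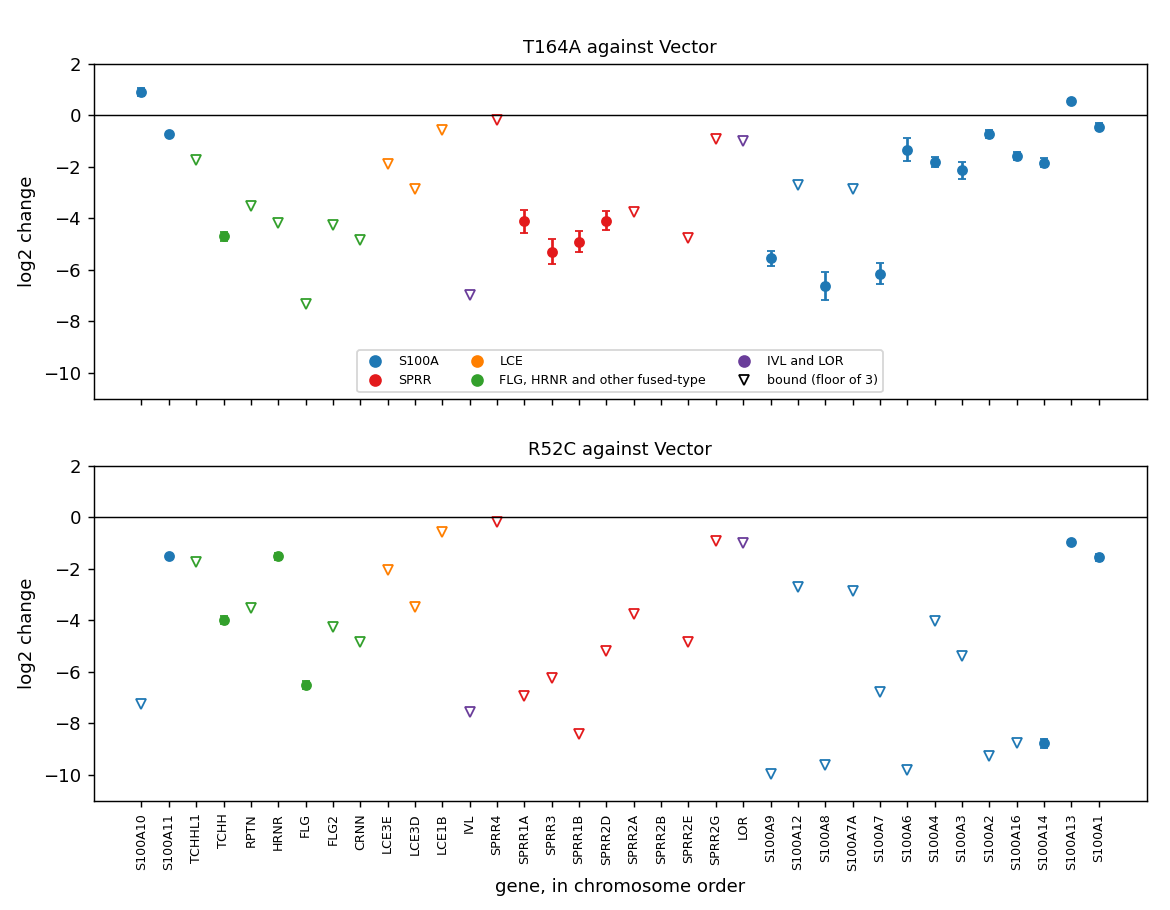
Log2 change against Vector for the 36 tested genes in chromosome order, T164A above and R52C below (filled points are fitted changes ± SE, open triangles are bounds where the lower group has libraries under the floor of 3, and SPRR2B has none because it averaged under 3 in each of these groups). In T164A the S100A genes at the ends of the cluster lie between -2.14 and 0.91 and the genes from TCHHL1 to S100A7 lie at -4.09 or lower or are bounds, while in R52C the fitted changes above -2 are those of S100A11, S100A13, S100A1 and HRNR.

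Further genes of the middle of the cluster were low in T164A. SPRR2D was at 3.84 to 4.26 in T164A and 7.95 to 8.48 in Vector, a change of -4.09, and TCHH was at 3.69 to 4.37 in T164A and 8.31 to 9.28 in Vector, 26.0-fold lower. CRNN, FLG2, RPTN, SPRR2A and S100A12 were under 3 in all 4 T164A libraries. Their bounds against Vector lay between 6.60-fold for S100A12 and 28.3-fold for CRNN.

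Set against NKX3.1 in place of Vector, with the same mutant libraries, the named genes gave these values. S100A8 was at least 802-fold lower in R52C and 102-fold lower in T164A, S100A9 at least 987-fold and 47.1-fold, and SPRR1B at least 326-fold and 29.3-fold. S100A10 was at least 112-fold lower in R52C and higher by 1.34 in T164A (SE 0.16, adjusted p = 1.49e-08 in limma). S100A13 fell by 0.79 in R52C and rose by 0.69 in T164A.

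Position in the cluster and family went together. In chromosome order S100A10 and S100A11 stand at one end, the fused-type, LCE and SPRR genes with IVL and LOR in the middle, S100A9, S100A12, S100A8, S100A7A and S100A7 next, and S100A6 to S100A1 at the other end. In T164A the changes of S100A10 and S100A11 were 0.91 and -0.74, and those of the 8 tested genes from S100A6 to S100A1 lay between -2.14 and 0.54. The 3 fitted changes of S100A9, S100A8 and S100A7 lay between -6.64 and -5.55. Of 24 neighbours of the cluster outside these families, 16 were higher and 6 lower in T164A, with a median change of 0.33. In R52C 14 were higher and 8 lower. Over all genes tested 40.6% were higher and 41.6% lower in T164A, and 42.2% and 41.6% in R52C. PGLYRP3 and PGLYRP4, peptidoglycan-binding genes inside the complex, were lower in both R52C and T164A and not called in NKX3.1.

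R52C against T164A sets the libraries with these labels against each other. The form of NKX3.1 cannot be told apart from other differences between them, such as those in KRT5, TP63 and KLK3. Of the 36 members 3 were higher and 27 lower in R52C, where 83.8% of all genes tested were called, 38.5% higher and 45.2% lower. In 14 members neither group averaged above 3, and outside these 3 were higher and 19 lower. With every library at the same median, 58.1% of called genes were higher in place of 46%, and 4 members were higher and 25 lower. The higher genes were fused-type: HRNR was at 5.65 ± 0.29 in R52C and 1.60 ± 0.41 in T164A (SD, n = 6 and 4), at least 6.29-fold higher, FLG at least 1.77-fold and TCHH by 0.73 (adjusted p = 0.000566 in limma). S100A10 was at least 283-fold lower, S100A2 at least 366-fold, S100A6 at least 352-fold and S100A14 122-fold lower.

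**Figure D4:**
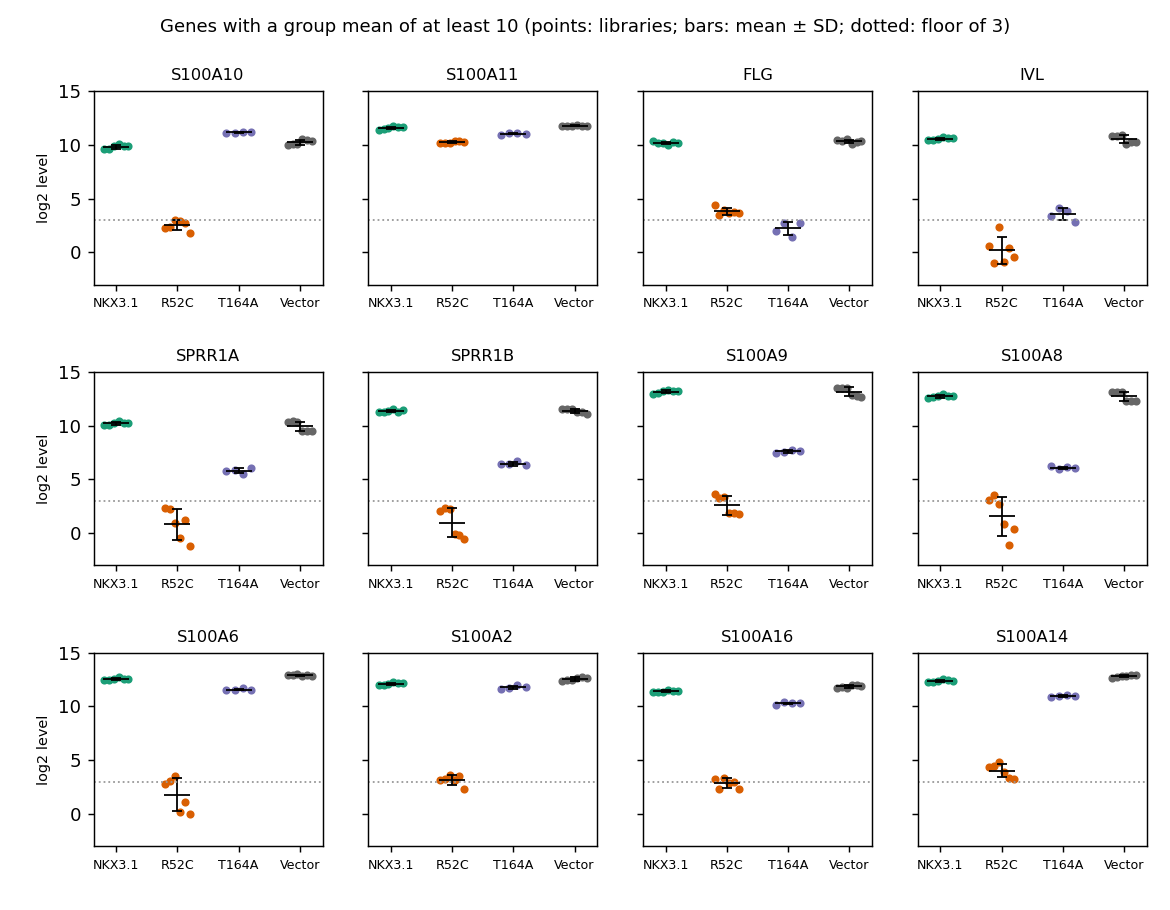
Log2 level in each library for the 12 genes whose mean reached 10 in some group, by group (points are libraries, bars are mean ± SD, the dotted line is the floor of 3). S100A11 is above 10 in all 4 groups, S100A10 is highest in T164A, and IVL, SPRR1A, SPRR1B, S100A8 and S100A9 are high in NKX3.1 and Vector, intermediate or low in T164A and near or under the floor in R52C.

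Other genes of envelope formation, listed outside the cluster, were compared in the same fit. Of 21 tested, 1 was higher and 6 lower in NKX3.1 against Vector, 2 higher and 19 lower in R52C, and 0 higher and 21 lower in T164A, with median changes of -0.24, -6.25 and -3.66, or -0.24, -5.18 and -3.53 with values under 3 raised to 3. CDSN, the other listed gene, was not analysed. Over all genes tested 21.6% were higher and 19.4% lower in NKX3.1, 42.2% and 41.6% in R52C, and 40.6% and 41.6% in T164A. Of the 21, 10 averaged above 3 in R52C and 16 in T164A. Those under 3 there entered the test through the other groups, so a higher call was hardly open to them. TGM1, the transglutaminase that cross-links the envelope, averaged 11.20 in NKX3.1, 6.32 in R52C, 8.28 in T164A and 11.60 in Vector. CSTA, or cystatin A, an envelope component, averaged 12.13 in NKX3.1, 3.08 in R52C, 8.20 in T164A and 12.36 in Vector. CNFN, or cornifelin, was the higher gene in NKX3.1, by 0.51 (adjusted p = 0.000193 in limma).

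Of 20 regulators of keratinocyte differentiation, 1 was higher and 13 lower in NKX3.1 against Vector, where 21.6% and 19.4% of all genes tested were. In R52C 1 was higher and 19 lower, where 42.2% and 41.6% of all genes were. In T164A 0 were higher and 18 lower, where 40.6% and 41.6% of all genes were. In NKX3.1 the higher gene was EHF, an ETS factor of epithelia, by 1.13, and JUNB, an AP-1 subunit, and CEBPB fell by 0.66 and 0.72. In T164A EHF fell by 5.20 and GRHL1, a grainyhead factor, by 3.14. Of 9 tested S100 partners and receptors, 5 were higher and 3 lower in T164A, with ANXA6, a membrane-binding annexin, higher by 4.45, and 3 higher and 4 lower in R52C. S100P, the one tested S100 gene outside 1q21, was not called in NKX3.1 or R52C and was at least 51.3-fold lower in T164A.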

How the data were processed

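Poly-A RNA was sequenced on a HiSeq2000 instrument in 22 libraries. The authors deposited 1 table of log2 values per gene; per the submitters' processing notes it was made with CASAVA 1.8.2, TopHat, Cufflinks and DESeq, with the builds GRCh37 and mm9 named (mm9 alone for T164A). Normalization, strand use and counts per library are not given in the sources used here, so the depth is unknown. Linear values summed to 17256903 to 21506481 per library, and 0 pairs of libraries were identical. Of 56299 entries, 3473 without a symbol and 4178 sharing a symbol were left out. Entries averaging under 0 had a 99.9th percentile of 2.81, so values under 3 were taken as not detected. A gene entered the test if at least 4 libraries exceeded 3, and the 21325 such genes were fitted with limma 3.58.1 in R 4.3.3 (trended spread, 4 groups in 1 fit, two-sided, Benjamini-Hochberg over all genes tested, called at an adjusted p under 0.05). This fit was tested on simulated data. Fold bounds raise values under 3 to 3. Members averaging at least 10 in a group are named with full values; S100A3, S100A4, S100A7A, S100A13, SPRR2A, SPRR3, CRNN, the genes of the plot of Vector replicates, the printed promoters and the check genes were picked after values were seen. The members and lists were chosen with earlier results of these data known. Scaling, filters, the fit and left-out libraries were varied. Levels per kilobase use GENCODE exon lengths. The level of the targeted gene is not reported here.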

Additional observations from a re-analysis of the deposited data

Results flagged for a closer look

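Of 98 levels checked (a tested member in a group), 4.08% held a library far from the others of its group by Dixon's criterion, 4 in all, and chance gives about 1 in 20. HRNR in NKX3.1 was lowest in replicate 4 at 7.03, with the others at 7.25 to 7.36. SPRR2D in NKX3.1 was lowest in replicate 6 at 7.91, with the others at 8.17 to 8.24. S100A7 in T164A was lowest in replicate 1 at 3.19, with the others at 3.74 to 3.79. SPRR1B in T164A was highest in replicate 3 at 6.76, with the others at 6.37 to 6.40.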

How the results depend on the processing

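The counts of members called lower in R52C against Vector and NKX3.1, and in T164A against Vector and NKX3.1, stayed within 1.5 times under every alternative run. The basal scaling was not run for comparisons with R52C. For NKX3.1 against Vector, the called members numbered 6 higher and 0 lower with the basal list at the same mean, 2 and 9 with values under 3 raised to 3, 2 and 9 with only these groups fitted, 5 and 5 with Vector replicates 4 to 6, 0 and 3 with replicates 1 to 3, and 0 and 8 at the same median. Over all 21325 genes tested, 4441 were called higher and 4989 lower with values under 3 raised to 3. Counts over all genes were 4170 and 4454 with only these groups fitted, and 3528 and 6382 at the same median. The basal scaling gave 4 higher in T164A against Vector and against NKX3.1. That scaling lifts all genes, to medians of 0.35, 0.94 and 0.56 and 99.5%, 81.9% and 72.8% of calls higher in NKX3.1 against Vector, T164A against Vector and T164A against NKX3.1, so its turned signs say nothing of the members alone. It turned FLG (0.21), S100A11 (0.17), S100A13 (0.21), S100A6 (0.024), S100A7A (0.0067) and SPRR1B (0.32) in NKX3.1 against Vector, S100A1 (0.54), S100A11 (0.25) and S100A2 (0.24) in T164A against Vector, and S100A1 (0.43), S100A11 (0.081) and S100A2 (0.31) in T164A against NKX3.1. In NKX3.1 against Vector replicates 1 to 3, CRNN (-0.094), IVL (-0.27), S100A8 (-0.37), S100A9 (-0.37), SPRR1A (-0.13), SPRR2A (-0.28) and SPRR3 (-0.16) turned; against replicates 4 to 6, SPRR1B did (0.13). At the same median IVL (-0.058), S100A8 (-0.052) and S100A9 (-0.079) turned, and with quantile normalization SPRR1B (0.0065). None of these genes but S100A2 and S100A11 was called in NKX3.1 against Vector. The cause was not tested. Leaving out 1 library gave -0.058 to 0.094 for IVL, -0.049 to 0.12 for S100A8 and -0.084 to 0.085 for S100A9, and 4 to 6 members lower. The same-median scaling moved the median of all genes to -0.22 in T164A against Vector, where S100A10 was then at 0.74 and S100A13 at 0.37, to 0.14 in R52C against Vector, 0.25 in R52C against NKX3.1, 0.22 in R52C against T164A and -0.16 in T164A against NKX3.1. No paired analysis was possible because the labels give no shared replicate numbers. Depth is unknown, and the floor of 3 limits the folds of members not detected in R52C or T164A.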
